A study of Mus musculus with 10 samples.

Results

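The 7 genes described here carry iron into, keep it in, or send it out of an intestinal cell. Cybrd1, Slc11a2 and Tfrc serve uptake, Fth1 and Ftl1 storage, and Slc40a1 and Heph export. They were taken by name from the 35006 gene names of 10 count tables. Cybrd1 was selected on its counts, which were highest in the libraries labelled P2, and the other members were set beside it to see whether they followed. The P2 values of all members are therefore given as a description, with no test. Only Cybrd1 stood above every other library in P2. Tfrc stood below every other library there, and the remaining 5 did neither. Of all 13708 genes tested, 20.2% stood above and 15% below every other library in P2.

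The cells came from small-intestinal crypts of EF1a-OSCAR mice of strain C57BL6/J and were sorted as live EpCAM+ cells, 10000 per population. All groups carry OSCAR, a reporter knocked into the Rosa26 locus and active in all tissues, in which the EF1a promoter drives mCherry and the Venus variant VeN90 from 1 transcript. VeN90 loses fluorescence when it is phosphorylated by CDK9, the kinase of elongating RNA polymerase II, so a high ratio of VeN90 to mCherry (OSCARhigh) marks low kinase activity. The 5 populations were P1 (OSCARlow EF1alow), P2 (OSCARhigh EF1alow), P3 (OSCARlow EF1ahigh), P4 (OSCARmed EF1alow) and P5 (OSCARmed EF1ahigh), where the EF1a term is the overall brightness of the transgene. Each had 2 biological replicates, poly-A selected RNA and 1 library per replicate; animal ages were not given in the sources used here.

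In the gut, dietary ferric iron is reduced at the brush border by Cybrd1 (duodenal cytochrome b, Dcytb), and ferrous iron enters through Slc11a2 (DMT1). Tfrc, the transferrin receptor, brings in iron from the blood side and is abundant in dividing cells. Ferritin, built of the heavy chain Fth1 and the light chain Ftl1, stores the iron. Slc40a1 (ferroportin) exports it, and Heph (hephaestin) oxidises it on the way out. When iron is scarce, the iron regulatory proteins bind a stem-loop, the iron-responsive element (IRE), which blocks translation when it lies in a 5′ UTR and protects the mRNA when it lies in a 3′ UTR.

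The libraries held 3857612 to 6485823 counts on genes. Those labelled P3 stood apart, with 59.2% and 36.1% of counts on mitochondrial genes against 1.04 to 5.19% in the other 8. The epithelial list (7 of 7 markers with counts) was expressed in all libraries, at a summed 4264 to 10886 CPM. Paneth cell markers (10 of 10 with counts) summed to 399635 to 563104 CPM in P2 against at most 62949 CPM elsewhere, and goblet, enteroendocrine and tuft markers were also highest in P2. The study's text places the secretory cell types in the other gate, P3, so the titles of these populations conflict with it. No library was renamed, and P2 and P3 below mean the libraries labelled so. Enterocyte markers were highest in P1, stem cell markers in P4 and P5. Levels are given as CPM, counts relative to library size after TMM scaling. The TMM factors ran from 0.490 (P3 replicate 1) to 1.56 (P4 replicate 2), so orders between populations can rest on this scaling. These are bulk libraries, so fewer cells of a type and less RNA per cell cannot be told apart.

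The IRE letters of the members are shown because they tie storage, export and uptake to the same regulators. Transcripts of GENCODE M1 on NCBIM37 were searched on their own strand for CNNNNNCAGTGN with the 5 bases on either side of the loop able to pair (A with T, G with C or G with T). Capitals mark the 6-base loop.
Fth1 5′ UTR, chr19:10057223-10057249, plus strand: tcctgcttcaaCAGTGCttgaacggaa
Ftl1 5′ UTR, chr7:52715150-52715176, minus strand: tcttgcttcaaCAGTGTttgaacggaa
Slc40a1 5′ UTR, chr1:45982311-45982337, minus strand: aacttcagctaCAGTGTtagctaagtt
Tfrc 3′ UTR, chr16:32631306-32631332, plus strand: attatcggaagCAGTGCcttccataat
Tfrc 3′ UTR, chr16:32631685-32631711, plus strand: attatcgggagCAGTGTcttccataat
Tfrc 3′ UTR, chr16:32631750-32631776, plus strand: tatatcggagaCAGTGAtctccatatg
Tfrc 3′ UTR, chr16:32631797-32631823, plus strand: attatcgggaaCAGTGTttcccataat
Fth1, Ftl1 and Slc40a1 carried their match in the 5′ UTR, and Tfrc carried 4 in the 3′ UTR. A match in a 5′ UTR was found in 0.166% of genes with one, and in a 3′ UTR in 0.623%. These letters were not in the searched transcripts of Cybrd1, Slc11a2 and Heph. The search asked for all 5 pairs and this loop, so an element of another shape would be missed. No match is therefore no evidence that these genes lack an IRE. A match is a description of the sequence and not a measured site.

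Levels between genes were compared per kilobase of annotated exon. The median over the 10 libraries was 1047 CPM per kb for Fth1, 156 for Ftl1 and 59.7 for Tfrc. Heph had a median of 14.9 CPM per kb and Slc11a2 of 7.25. Slc40a1 (0.893 CPM per kb) and Cybrd1 (0.332 CPM per kb) were lowest, and no library outside P2 had more than 71 counts of Cybrd1.

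Of the uptake genes, Cybrd1 (chr2:70955980-70980983, plus strand) had 540 and 505 counts in the P2 libraries, or 164 and 112 CPM. P1 had 3.21 and 11.8 CPM and P5 had 2.17 and 1.37 CPM. P4 had 3 counts in each library (0.367 and 0.297 CPM), and P3 had none. The populations did not overlap at any step of the order P2, P1, P5, P4, P3. The last step, from P4 to P3, is not resolved at this depth. A floor of 3 counts per library is 1.13 CPM in P3, above the P4 mean of 0.332 CPM. The mean in P2 was 18.4 times that in P1 and 78.0 times that in P5. Against P4 the ratio of counts scaled for library size was 409, with a 95% exact interval of 187 to 1117 that covers counting error only. Against P3 it was at least 123-fold higher, with a floor of 3 counts per library. At this depth a gene with 0 counts could hold up to 7.78e-05% of the counts of a P3 library.

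Outside P2, the library of P1 and of P5 with more Cybrd1 also had more Paneth markers. In P4 and P3 the Cybrd1 counts, 3 in each P4 library and none in P3, were too few for such a comparison. The P1 library with more Cybrd1, replicate 2, had 62949 CPM of Paneth markers and the other 19625 CPM. P5 had 10751 and 2197 CPM, with more in the library that had more Cybrd1. P4 had 505 and 844 CPM, with 3 counts of Cybrd1 in each library. P3, with no Cybrd1 count, had 1802 to 3397 CPM of Paneth markers, which is above P4. The part of Paneth cells in the Cybrd1 levels was not tested. The genes most like Cybrd1 in log2 CPM across the 10 libraries, of all tested, were Defa-ps7, Reg4, Defa-ps4, Tmed6 and NR_033626. Their Pearson r was from 0.988 to 0.9888. Cybrd1 was selected for its P2 counts and r includes the P2 libraries, so the list favours genes high in P2. The points also share libraries and populations, so this is a description.

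**Figure D1:**
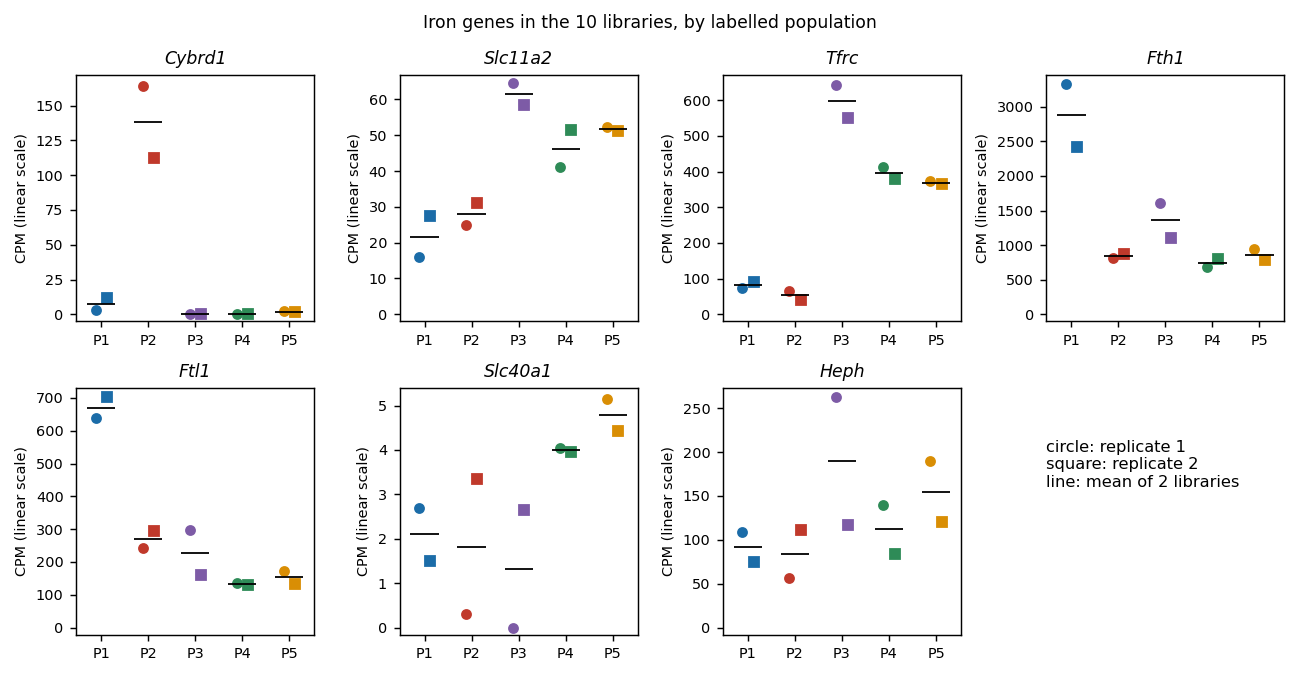
CPM after TMM scaling (linear axis from 0) of the 7 iron genes in the 10 libraries, by labelled population, with circles for replicate 1, squares for replicate 2 and a line for the mean of the 2 libraries. Cybrd1 is high only in P2 (164 and 112 CPM), Tfrc is lowest there (66.6 and 39.8 CPM), and Fth1 and Ftl1 are highest in P1.

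Slc11a2, the ferrous iron transporter, followed another order. It had 64.5 and 58.4 CPM in P3, 52.2 and 51.1 CPM in P5 and 41.0 and 51.4 CPM in P4. P2 had 24.9 and 31.1 CPM, and P1 15.9 and 27.4 CPM. P3 was above all other libraries, P4 and P5 overlapped, and so did P1 and P2. That place of P3 rests on the TMM factors. Without them, 122 of 3855351 and 264 of 4692399 tested counts in P3 would lie below P4 and P5. P4 had 335 of 5393638 and 520 of 6474793, and P5 had 457 of 6428083 and 484 of 6352271. The mean in P2 was 2.19 times lower than in P3 and 1.65 times lower than in P4. Slc11a2 overlaps the opposite-strand gene Gm5475, and reads were counted without strand.

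Tfrc had 66.6 and 39.8 CPM in P2 and 74.0 and 90.7 CPM in P1. Its levels were 642 and 551 CPM in P3, 374 and 365 CPM in P5, and 414 and 378 CPM in P4. All P2 libraries lay below all others, and no neighbours in the order P3, P4, P5, P1, P2 overlapped, although P4 and P5 differed by 1.07-fold only. Without the TMM factors, P3 replicate 1 (1214 of 3855351 tested counts) would lie below all P4 and P5 libraries, such as P5 replicate 1 (3273 of 6428083). Tfrc was 11.2 times higher in P3 than in P2, 7.45 times in P4, 6.94 times in P5 and 1.55 times in P1. Cycling markers (12 of 12 with counts) were also lowest in P2 (254 to 344 CPM in sum) and next in P1 (397 to 400 CPM). Among the other populations their order differed from that of Tfrc, with 874 to 989 CPM in P4, 985 to 1655 CPM in P3 and 1474 to 2350 CPM in P5. Their part in the Tfrc levels was not tested.

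The storage genes were highest in P1, where both libraries lay above all others for 2 of 7 members (Fth1 and Ftl1; 21% of all genes did so). Fth1 had 3334 and 2419 CPM in P1, 1606 and 1109 CPM in P3 and 938 and 782 CPM in P5. P2 had 817 and 875 CPM and P4 686 and 792 CPM. P2 overlapped P5 and lay just above P4. Without the TMM factors, P2 (2688 of 4774782 and 3934 of 6346125 tested counts) would lie below P4 and P5. P4 had 5605 of 5393638 and 8009 of 6474793. Ftl1 had 638 and 702 CPM in P1, 243 and 296 CPM in P2 and 297 and 159 CPM in P3, with 174 and 132 CPM in P5 and 137 and 130 CPM in P4. P2 and P3 overlapped, as did P3 and P5, and P5 and P4. For Ftl1, 96.0% of the transcript lies in copies of at least 98% identity elsewhere in the genome, and reads with several alignments were not counted, so its level and its ratio to Fth1 are uncertain.

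The export genes showed no high population like that of Cybrd1. Slc40a1 had 1 and 15 counts in P2, 16 and 9 in P1 and 0 and 12 in P3, or between 0 and 3.34 CPM. It had 33 and 40 counts in P4 and 45 and 42 in P5, which gave 4.04 and 3.96 CPM and 5.14 and 4.44 CPM. P5 was above all other libraries for this 1 of 7 members (background 1.18%), and P1, P2 and P3 overlapped. Heph had 56.6 and 111 CPM in P2 and 109 and 74.9 CPM in P1, against 263 and 117 CPM in P3, 189 and 120 CPM in P5 and 139 and 84.2 CPM in P4. All neighbours in its order overlapped. Heph overlaps 3 other annotated genes, Hsf3, Gm14934 and Gm14935, of which 1 lies on the opposite strand.

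Whether the others followed Cybrd1 into P2 is answered by these counts. P2 lay above all 8 other libraries only for Cybrd1, which was selected for being highest there, and for no other member. Of the 13708 genes tested, 20.2% did so. It lay below all others for 1 of 7 (Tfrc), where 15% of genes did. On the log2 scale, P2 against the average of the other 4 populations was 7.96 for Cybrd1, a fitted value that rests on the empty P3 libraries and is no bound. It was 0.19 for Ftl1 and between -0.64 and -0.57 for Fth1, Slc40a1, Slc11a2 and Heph, and -2.46 for Tfrc. The median of the members was -0.57, beside -0.000431 over all genes. Cybrd1 remained the only member above all others when the P3 libraries were left out. For Slc40a1 the direction rested on 1 library: without P2 replicate 1 the value was 0.22, and without P3 replicate 2 it was 1.03.

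P1, the OSCARlow EF1alow gate, was compared with the average of P3, P4 and P5, which does not use P2. Ferritin was higher and the transferrin receptor and DMT1 lower. By edgeR's quasi-likelihood test at an adjusted p under 0.01, 5 of 7 members were called, 3 higher and 2 lower, while 31.7% of all genes were called (18.8% higher, 12.9% lower). Fth1 rose 3.02-fold (log2 1.60, SE 0.25, adjusted p = 0.000981) and Ftl1 4.02-fold (log2 2.01, SE 0.23, adjusted p = 0.000275). Tfrc fell 5.38-fold (log2 -2.43, SE 0.26, adjusted p = 0.000231) and Slc11a2 2.44-fold (log2 -1.29, SE 0.24, adjusted p = 0.00216). Cybrd1 was also called higher (adjusted p = 0.000763), at a fitted log2 of 5.03 that rests on the empty P3 libraries and was 3.77 without P1 replicate 2 and 5.68 without P1 replicate 1. Heph (log2 -0.69, SE 0.40, adjusted p = 0.179) and Slc40a1 (log2 -0.58, SE 0.82, adjusted p = 0.588) were not called. The median of the members was -0.58, beside -0.00699 over all genes.

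Fitted without the libraries of P2 and P3, P1 against the average of P4 and P5 gave the same 5 calls, beside 40.2% of 13119 genes. Cybrd1 was then 9.67-fold higher (log2 3.27, SE 0.61, adjusted p = 0.00434), Fth1 (log2 1.85) and Ftl1 (4.68-fold) were higher, and Tfrc (4.64-fold) and Slc11a2 (2.25-fold) were lower. Without P1 replicate 1, Fth1 (log2 1.35, adjusted p = 0.0149) and Slc11a2 (log2 -0.94, adjusted p = 0.0244) were no longer called in the contrast with P3, P4 and P5, leaving 3 members. T cell markers (7 of 7 with counts) summed to 235 to 761 CPM in P1, against at most 125 CPM elsewhere, and enterocyte markers (14 of 14) to 35578 to 46304 CPM against at most 31522 CPM. Macrophage markers (8 of 9 with counts, Fcgr1 at 0) reached 511 CPM in P1 and 266 CPM elsewhere. The part of these cells in the P1 values was not tested.

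**Figure D2:**
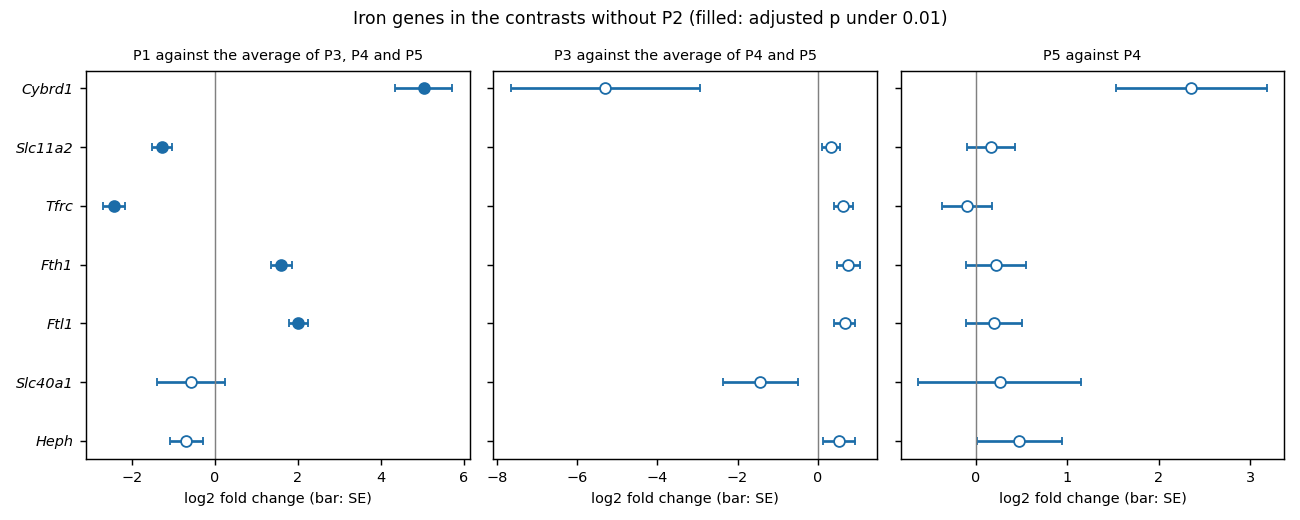
log2 fold change (points) with a standard error derived from the test statistic (bars) of the 7 iron genes in the 3 contrasts that leave P2 out, filled where edgeR's adjusted p was under 0.01. In P1, Fth1 (1.60) and Ftl1 (2.01) lie right of 0 and Tfrc (-2.43) and Slc11a2 (-1.29) left of it, and no point is filled in the other contrasts.

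The ratio of Fth1 to Tfrc within a library separated P1 and P2 from the rest. It does not stand for all storage and uptake genes. Of the other uptake genes, Cybrd1 was highest in P2 and next in P1, and Slc11a2 was lowest in P1 and P2. Per kilobase, Fth1 stood to Tfrc as 322 and 190 in P1 and as 87.7 and 157 in P2. The same ratio was 17.9 and 15.3 in P5, 11.8 and 15.0 in P4, and 17.9 and 14.4 in P3. P1 and P2 did not overlap with each other or with the other populations. P3 overlapped both P4 and P5, and P4 lay below P5. In P1 both genes lay outside the range of P4 and P5. After TMM scaling, Fth1 in P2 lay within that range and Tfrc below it. The ratio of Ftl1 to Fth1 ran from 0.0925 to 0.218 over all libraries.

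**Figure D3:**
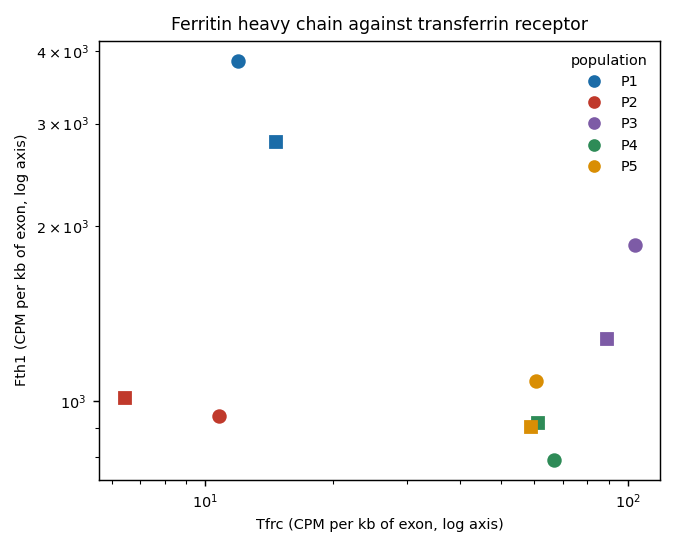
Fth1 against Tfrc, both in CPM per kilobase of exon on log axes, for the 10 libraries (circles replicate 1, squares replicate 2, coloured by population). P1 lies at high Fth1 and low Tfrc, P2 at low Tfrc with Fth1 (944 and 1010 CPM per kb) near that of P4 and P5, and P3 at the highest Tfrc (104 and 89.1 CPM per kb).

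The libraries labelled P3 were compared with the average of P4 and P5. That they are the OSCARlow EF1ahigh gate rests on the titles that conflict with the study's text. None of the 7 members was called by edgeR, and 4 of 13708 genes were (0.0292%); 3 members and 2373 genes had an unadjusted p under 0.05, and DESeq2 called 135 genes and 0 members. The values were log2 0.77 for Fth1 (SE 0.28, adjusted p = 0.232), 0.67 for Ftl1 (SE 0.26, adjusted p = 0.251) and 0.64 for Tfrc (SE 0.23, adjusted p = 0.232). Both P3 libraries lay above all others for Slc11a2 and Tfrc (2 of 7, background 5.84%) and below them for Cybrd1 (1 of 7, background 5.89%). For Slc11a2 and Tfrc this rests on the TMM factors, as given above. For Cybrd1 the P3 floor of 3 counts per library lies above the P4 level, so its place below P4 is not resolved. Hemoglobin and other erythroid markers (7 of the 8 in the tables with counts, Slc4a1 at 0) were highest in P3, at 93.0 to 161 CPM in sum, against at most 47.4 CPM elsewhere. Their part in the P3 values, like that of the mitochondrial share, was not tested.

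P5 against P4 compares a bright with a dim transgene at medium OSCAR. No member and no gene was called by edgeR (0%), while 351 genes and 1 member, Cybrd1, had an unadjusted p under 0.05 and DESeq2 called 27 genes. Cybrd1 was 5.34 times higher by mean CPM (log2 2.35, SE 0.83, adjusted p = 1). With no filter on low counts its adjusted p was 0.0034. Paneth markers were also higher in P5 (2197 to 10751 CPM) than in P4 (505 to 844 CPM). For Slc40a1, above all others in P5, the value was log2 0.26 (SE 0.89, adjusted p = 1). The other 6 members differed by log2 -0.10 (Tfrc) to 0.47 (Heph).

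Patterns most like each of the other members across the 10 libraries, by Pearson r of log2 CPM and again as a description, were these. Tfrc was nearest to C1qbp (0.992), Hspd1 and Rps26, and Slc11a2 to Pigu (0.9856), Frrs1 and Mrpl37. Fth1 was nearest to Gm6977 (0.9858), Twf1 and Cops2, and Ftl1 to Wbp2 (0.9911), Pold4 and Dnajb4. Slc40a1 was nearest to Adam1a (0.9466), Apln and Ubxn7, and Heph to Gpr155 (0.9789), Epha2 and Slc3a1. No member was among the nearest genes of another.

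Around the members, 75 further iron and heme genes were listed by role, of which 73 were in the tables and 58 passed the filter on low counts. In P2 against the average of the other 4 populations, 3 of 58 were higher and 10 lower by edgeR at an adjusted p under 0.01, beside 16.3% higher and 10.7% lower of all genes. The 3 include Ltf, which passed the filter only through P2. The list's median was -0.31 on the log2 scale. The largest group was mitochondrial iron handling and iron-sulfur cluster assembly, where 7 of 16 tested genes were lower and 0 higher, with a median of -0.95.

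Fdx1, a mitochondrial ferredoxin, had 8.82 and 4.67 CPM in P2 and 19.1 to 51.4 CPM elsewhere (log2 -2.05, SE 0.32, adjusted p = 0.00100). Hspa9, the mitochondrial chaperone for cluster transfer, had 180 and 141 CPM in P2 and 295 to 652 CPM elsewhere (log2 -1.52, SE 0.22, adjusted p = 0.000580). Aco1, which is cytosolic aconitase or iron regulatory protein 1, had 79.1 and 127 CPM in P2 and 178 to 672 CPM elsewhere (log2 -1.55, SE 0.28, adjusted p = 0.00216). For each of these genes, named because they were called lower, P2 lay below all other libraries, as it did for 15% of all genes. Other genes lower in P2 included the mitochondrial genes Glrx5, Bola3, Slc25a37 and Nfu1, and Alas1 of heme synthesis.

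The 3 genes higher in P2 were Slc39a8, Slc48a1 and Ltf. Slc39a8, a metal transporter of the ZIP family, had 78.4 and 82.1 CPM in P2 and 10.3 to 33.6 CPM elsewhere (log2 1.86, SE 0.28, adjusted p = 0.000856). Slc48a1, a heme transporter, had 45.6 and 38.5 CPM against 7.84 to 19.5 CPM (log2 1.88, SE 0.22, adjusted p = 0.000217), and overlaps Hdac7 on the other strand. Ltf, the secreted iron-binding protein lactoferrin, had 22 and 51 counts in P2 and 0 to 5 in the others and passed the filter on low counts through the P2 libraries alone, so its call is given no p or fold and supports nothing. All 3 were above all other libraries in P2, as were 20.2% of all genes. They are named because they were called higher there, so this is a description. The count of 13 calls fell to 4 without P2 replicate 1 and to 8 without P2 replicate 2.

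**Figure D4:**
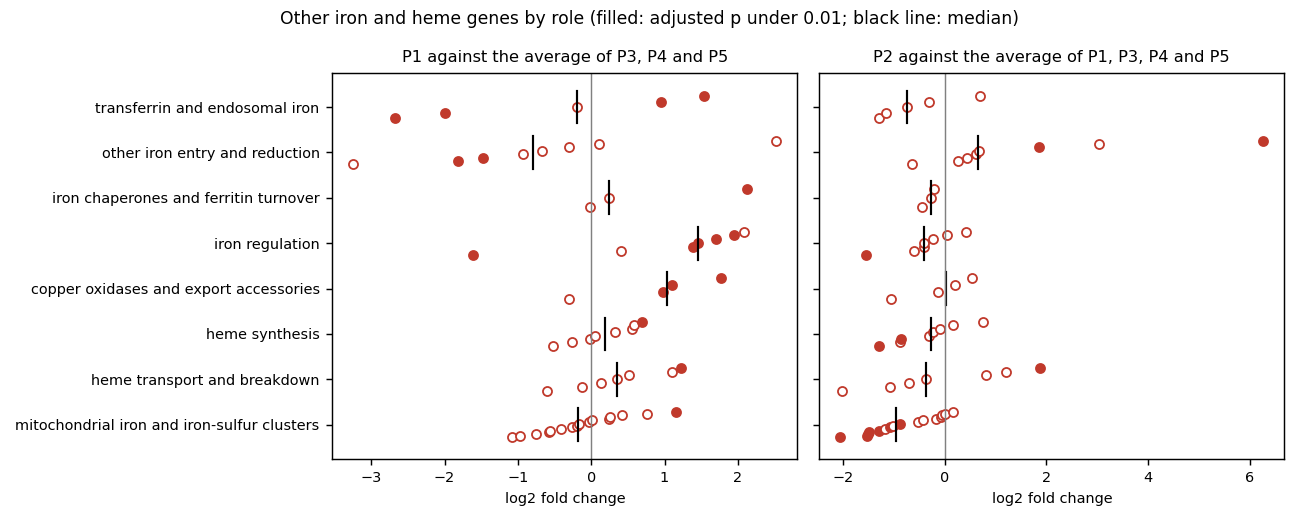
log2 fold change of the 58 tested iron and heme genes by role, in P1 against the average of P3, P4 and P5 (left) and in P2 against the average of the other 4 (right), filled where edgeR's adjusted p was under 0.01, with a black line at each role's median. The median of iron regulation lies right of 0 in P1 (1.45), with Neo1 called on the left (-1.61), and the median of mitochondrial iron genes lies left of 0 in P2 (-0.95), with 7 of 16 called.

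In P1 against the average of P3, P4 and P5, 13 of the 58 were higher and 5 lower, beside 18.8% and 12.9% of all genes, with a median of 0.08. Iron regulation had 4 of 7 tested genes higher and 1 lower. The iron sensor and ubiquitin ligase subunit Fbxl5 had 371 and 280 CPM in P1 and 67.5 to 107 CPM elsewhere (log2 1.95, SE 0.21, adjusted p = 0.000233), and overlaps Bst1 on the other strand. Fbxl5 marks iron regulatory protein 2 for destruction when iron is plentiful. Ireb2, which encodes that protein, was higher as well (log2 1.71), as were Hif1a (1.45) and Aco1 (1.39), while Neo1, a hemojuvelin receptor, was lower (-1.61).

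Ncoa4, the cargo receptor that takes ferritin to the lysosome, had 49.7 and 20.9 CPM in P1 and 4.43 to 13.8 CPM elsewhere (log2 2.12, SE 0.39, adjusted p = 0.00220). Mon1a, a trafficking factor linked to ferroportin, had 96.8 and 101 CPM against 17.5 to 57.8 CPM (log2 1.77, SE 0.25, adjusted p = 0.000570). Both are named because they were called higher, and both lay above all other libraries in P1, as 21% of all genes did. Of the 4 export accessories tested, 3 were higher, where 18.8% of all genes were. They were Mon1a and the copper genes Atox1 (log2 1.10) and Slc31a1 (0.97).

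The metalloreductases Steap3 and Steap2 fell in P1. Steap3, the endosomal ferrireductase of the transferrin cycle, had 8 and 30 counts in P1, 19 and 26 in P2 and 28 to 250 in the rest (log2 -2.67, SE 0.55, adjusted p = 0.00369). On the CPM scale its P1 libraries lay below all others, and those of P3, P4 and P5 had 13.0 to 30.3 CPM. Steap2 had 3.89 and 8.51 CPM, against 12.7 to 27.1 CPM in P3, P4 and P5 (log2 -1.82, SE 0.40, adjusted p = 0.00521). For Steap2, P2 with 7.91 and 12.5 CPM overlapped P1. Hfe, a partner of the transferrin receptor, had 2.53 and 0.834 CPM in P1, 2.13 and 1.78 CPM in P2 and 5.31 to 8.34 CPM elsewhere (log2 -1.99, SE 0.49, adjusted p = 0.00875). Slc39a14, another ZIP transporter, was lower too (log2 -1.48). Of transferrin cycle genes, Snx3 and Exoc6 were higher. The count of 18 calls was 7 without P1 replicate 1, 9 without P1 replicate 2 and 11 without P4 replicate 2 or P5 replicate 2. None of the 58 was called in P3 against the average of P4 and P5 (11 with an unadjusted p under 0.05) or in P5 against P4 (0), and DESeq2 called none there either.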

How the data were processed

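Per the labels and the methods of the study, the authors checked reads with FastQC 0.11.5, mapped them to mm9 with TopHat2 2.1.0 over bowtie1, and counted reads on exons with HTSeq-count 0.11.2, without strand, in the intersection-nonempty mode. The deposited values are whole-number counts per gene name, not normalized, and reads with several alignments were not counted (11.6 to 41.7% of all reads). The unnamed row (11 to 33 counts a library) and the HTSeq summary rows were left out, as were 204 rRNA gene names of GENCODE M1, in which 33643 of the 35006 names were found.

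Counts were filtered with filterByExpr (13708 genes left; all 7 members passed), scaled by TMM and fitted over the 10 libraries with edgeR 4.0.16 in R 4.3.3. Contrasts were tested by quasi-likelihood with Benjamini-Hochberg adjustment over all genes, at an adjusted p under 0.01. Each SE given is the absolute log2 fold change divided by the square root of the quasi-likelihood F. It was not estimated separately. DESeq2 1.42.0, other scalings and filters, and each library left out were alternatives. The code was tested on simulated data. Copies were found with blastn 2.17.0, and figures drawn with matplotlib 3.10.9.

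Members and gene lists were chosen with earlier results of these data known. The genes named were all members, the genes most like each in pattern and, of the other iron genes, the 6 with the largest called change in each contrast. Further called genes given beside counts of roles were chosen after their values were seen, as were the leaving out of P3 and the comparison of the EF1a effect between OSCAR levels. Some called genes are counted but not reported here by name. Replicates are biological per the study, but no label says which animals they came from. Counting intervals and floors (3 counts, 4.63e-05 to 7.78e-05% of a library) cover counting error only.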

Additional observations from a re-analysis of the deposited data

Results flagged for a closer look

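Tfrc differed in how it went with transgene brightness at low and at medium OSCAR. Bright against dim (EF1ahigh against EF1alow) was, by mean CPM, 7.24-fold higher at low OSCAR (P3 against P1) and 1.07 times lower at medium OSCAR (P5 against P4). P3 is taken by its label here, and the titles of P2 and P3 conflict with the study's text. If they were exchanged, the comparison at low OSCAR would be labelled P2 against P1, in which Tfrc was 1.55 times lower. The difference of the differences, by label, was 2.96 on the log2 scale (SE 0.40, edgeR quasi-likelihood test, adjusted p = 0.00884), with both P3 libraries above all P1 libraries, beside 0.817% of all genes called. It was tested after the values had been seen. Leaving out any 1 library, or the libraries of P2, kept a value of 2.80 to 3.14 but moved the adjusted p to between 0.0102 and 0.06. No other member was called in this comparison by edgeR. DESeq2 called Cybrd1, Fth1 and Ftl1 as well, at adjusted p-values of 5.95e-06, 0.00116 and 0.00028.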

How the results depend on the processing

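The log2 fold changes of the members were recomputed 609 times under other settings. Of these, 579 stayed the same, 13 lost a call, 7 gained one, 7 reversed and 3 moved by more than the spread. The same means that direction and side of the threshold were kept. For P2, where members have no test, it means that direction was kept and the value moved by less than the SD of the P2 libraries. The reversals came with libraries left out, none of them of a called value. Slc40a1 in P2 ran from -3.15 to 1.03 (0.22 without P2 replicate 1, 1.03 without P3 replicate 2) and in P1 from -1.06 to 1.52 (without P3 replicate 2). Heph in P3 ran from -0.20 (without P3 replicate 1) to 0.99, and Ftl1 in P5 against P4 from -0.0051 (without P5 replicate 1) to 0.39. In the difference of the EF1a contrasts Slc40a1 ran from -7.00 (without P3 replicate 2) to 0.096 and Heph from -0.11 to 1.08 (without P3 replicate 1 for the reversed ends). With 1 library left in a population, that library was assumed to vary like the others. Leaving out each library in turn gave 3 to 5 members called in P1, 1709 to 4454 genes and 4 to 19 other iron genes in P2, 1656 to 5393 genes and 7 to 19 other iron genes in P1, and 0 to 23 genes in P3. An adjusted p under 0.05 gave 5708 genes and 21 other iron genes in P2, 6610 genes in P1 and 15 in P3, beside 3707, 13, 4343 and 4. With no filter on low counts, 22 other iron genes were called in P2, 527 genes and 1 other iron gene in P3, and 195 genes, 1 other iron gene and 1 member (Cybrd1, log2 2.33, adjusted p = 0.0034) in P5 against P4. DESeq2 called 135 genes in P3 and 27 in P5 against P4. No gene was called in P3 with mitochondrial genes left out or with only P3, P4 and P5 fitted. Replicate numbers shared by populations were not treated as pairing in the main fit. The correlation of replicate differences was over 0.1 in 9 of 10 pairs of populations, with a lowest of -0.0597. The median was 0.255 and the highest 0.554 (P4 with P5). Whether replicates shared animals or sort days was not tested. With the replicate number as a block, 12 genes were called in P3 and 1 in P5 against P4, and no count of members changed. The causes of these shifts were not tested. Slc40a1 had at most 45 counts in a library and Cybrd1 at most 71 outside P2, which limits their precision.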
